A study of Mus musculus with 11 samples.

Results

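The Kupffer cell identity genes described here are 8 genes by which the resident macrophages of mouse liver are recognised: Clec4f, Vsig4, Cd5l, Folr2, Csf1r, Timd4, Marco and Cd163. They were chosen by name, and each was read on the probe set annotated to its symbol alone. All 8 were measured, among 19938 genes in all. RNA came from whole, tumour-free liver of male mice aged 14 months, in 3 groups. The Mdr2-KO/IL6-KO group (4 arrays) lacked both the phospholipid transporter Mdr2 and interleukin 6, the Mdr2-KO group (4 arrays) lacked Mdr2 alone, and the wild-type group (3 arrays) was C57BL/6. The labels do not give the strain of the knockout samples and name no promoter or cell type that would restrict either deletion. Loss of Mdr2 was therefore shared by both knockout groups, and by the labels those groups differ from each other in Il6 alone. No label states that each array came from a mouse of its own, so p-values reflect only how far these samples spread, which may be technical.

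Kupffer cells line the liver sinusoids, where they take up bacteria, dying cells and worn-out red cells from portal blood. In mice they are seeded before birth, renew themselves locally and depend on signalling through the CSF1 receptor. When they are lost, incoming monocytes can fill the niche and take on most of the same genes, some of them, such as Timd4, only slowly. Mdr2, the product of Abcb4, puts phospholipid into bile, and its loss in mice leads to inflamed bile ducts and scarring.

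Abcb4 was read as a check of the labels. Its log2 level averaged 8.09 ± 0.204 in Mdr2-KO/IL6-KO and 7.74 ± 0.194 in Mdr2-KO livers (SD, n = 4 each), against 9.83 ± 0.105 in wild-type livers (SD, n = 3). It fell in both comparisons with wild type, with limma adjusted p = 6.75e-06 and 2.22e-06. Il6 passed the test in neither knockout group and checks nothing. Array medians over all 35557 probe sets lay between 5.09 and 5.23, and pairs of arrays correlated at Pearson r 0.976 to 0.990 over them. Wild-type and knockout sample titles carry different prefixes of unstated meaning, which cannot be told apart from genotype.

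The promoter sequences of 7 of the 8 members were matched by symbol in a RefSeq table of build GRCm38.p6, in 8 windows because Folr2 had 2 start sites. The exception was Csf1r. Each window runs from 250 bases before to 50 bases after the start of the gene, on the strand of the gene, and the first transcribed base is position 1. A total of 9 motifs were searched on both strands. The core motif of PU.1, the master factor of myeloid cells, was written as GAGGAA. The half-site of nuclear receptors such as LXR-alpha was written as AGGTCA, alone and as a direct repeat with 4 bases between the copies. The half-site of MAF factors was written as TGCTGA, alone and as a palindrome followed by its reverse complement after 1 base or after 2 bases. The remaining motifs were the CCAAT box, the E-box with the letters CACGTG and the TATA box with the letters TATAAA. The repeat and the palindromes contain the half-sites, and the palindromes were added after the half-site matches had been seen.

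The windows printed are those of the members with a MAF half-site, 1 window each. TGCTGA and its reverse complement TCAGCA are in capitals.
Cd5l, chr3:87357631-87357930, plus strand: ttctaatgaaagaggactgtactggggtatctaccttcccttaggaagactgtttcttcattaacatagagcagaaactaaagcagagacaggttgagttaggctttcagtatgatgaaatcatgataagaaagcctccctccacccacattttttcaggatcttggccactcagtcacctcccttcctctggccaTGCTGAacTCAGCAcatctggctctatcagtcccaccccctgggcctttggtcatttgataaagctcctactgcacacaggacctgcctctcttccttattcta
Clec4f, chr6:83656067-83656366, minus strand: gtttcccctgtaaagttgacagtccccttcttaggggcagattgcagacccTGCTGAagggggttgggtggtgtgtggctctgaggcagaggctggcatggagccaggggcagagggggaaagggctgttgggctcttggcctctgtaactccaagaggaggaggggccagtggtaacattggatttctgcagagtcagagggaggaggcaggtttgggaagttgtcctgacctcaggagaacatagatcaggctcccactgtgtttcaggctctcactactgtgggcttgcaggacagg
Vsig4, chrX:96293389-96293688, minus strand: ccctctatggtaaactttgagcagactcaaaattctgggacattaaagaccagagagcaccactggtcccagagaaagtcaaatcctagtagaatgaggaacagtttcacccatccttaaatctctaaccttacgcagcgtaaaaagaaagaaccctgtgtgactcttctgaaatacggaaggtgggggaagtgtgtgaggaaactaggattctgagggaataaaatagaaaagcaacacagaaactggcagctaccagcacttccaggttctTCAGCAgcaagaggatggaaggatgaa
Folr2, chr7:101857141-101857440, minus strand: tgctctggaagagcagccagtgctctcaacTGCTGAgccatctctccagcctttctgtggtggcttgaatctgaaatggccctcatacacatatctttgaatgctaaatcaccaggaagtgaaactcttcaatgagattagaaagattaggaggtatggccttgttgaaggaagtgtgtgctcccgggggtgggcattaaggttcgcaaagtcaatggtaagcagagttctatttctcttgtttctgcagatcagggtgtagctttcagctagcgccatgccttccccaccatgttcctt
Timd4, chr11:46810549-46810848, plus strand: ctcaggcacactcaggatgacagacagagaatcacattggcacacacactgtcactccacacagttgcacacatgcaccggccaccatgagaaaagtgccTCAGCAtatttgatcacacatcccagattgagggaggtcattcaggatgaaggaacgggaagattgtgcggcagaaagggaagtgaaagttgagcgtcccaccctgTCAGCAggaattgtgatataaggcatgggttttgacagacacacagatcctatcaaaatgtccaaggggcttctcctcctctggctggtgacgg

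The MAF half-site was found in 6 of the 8 windows of the members, against 19.5% of all 32851 promoter windows in the table. It starts at -54 and -46 in Cd5l, at -199 in Clec4f, at 24 in Vsig4, at -150 and -44 in Timd4, and at -220 in the Folr2 window shown. In the other Folr2 window, at chr7:101845282-101845581 on the minus strand, it starts at -19. The pair of half-sites in Cd5l faces each other and makes the palindrome with 2 bases between the copies, which only 2 of the 32851 windows hold (0.00609%). The windows of Marco, at chr1:120504975-120505274 on the minus strand, and of Cd163, at chr6:124304401-124304700 on the plus strand, held no MAF half-site. The PU.1 core was found in 3 of the 8 windows (Marco, Cd5l and Vsig4), against 28.3% of all windows. The nuclear receptor half-site was found in 2 (Clec4f and Timd4), against 16.3%, and CCAAT in 3 (Clec4f, Cd163 and Timd4), against 37.4%. TATAAA was found in 0 of the 8 windows, against 13.6% of all windows, and CACGTG in 0, against 7.15%. The repeat of AGGTCA and the shorter MAF palindrome were also found in 0 of the 8, against 0.0152% and 0.00609%. These matches describe letters in a window and carry no measurement of binding.

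The comparison between Mdr2-KO/IL6-KO and Mdr2-KO livers asks whether interleukin 6 alters liver that already lacks Mdr2. With all 11 arrays in the model, 0 of the 8 members passed (limma, adjusted p under 0.05), where 1 of all 19938 genes did (0.00502%). None had an unadjusted p under 0.05, against 4.82% of all genes, and none had arrays that did not overlap between the groups, against 2.51%. The median log2 change of the members was 0.04, against 0.01 for all genes. Estimates were below 0 for Timd4, Marco and Cd163 and above 0 for the other 5. The limma SEs and p-values of these changes draw on the spread within all 3 groups, the wild type included. Whole liver was measured, so fewer cells of a type and less RNA per cell cannot be told apart in any of these levels.

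Both knockout groups were also compared with wild type, and those comparisons share the 3 wild-type arrays. Between Mdr2-KO/IL6-KO and wild-type livers 0 of 8 members passed, where 836 genes did (4.19%), and 0 had an unadjusted p under 0.05, against 15.5% of all genes. Between Mdr2-KO and wild-type livers 0 of 8 passed, where 252 genes did (1.26%). Cd5l was the 1 member there with an unadjusted p under 0.05, against 9.79% of all genes. No member had arrays that did not overlap in either comparison, against 16.3% and 9.13% of all genes. Median log2 changes of the members were -0.25 and -0.35, against -0.001 and -0.006 for all genes, with 7 and 5 of the 8 estimates below 0. Exact two-sided permutation tests of single members gave p from 0.0857 to 0.971 over the 24 comparisons, and at least 0.938 after adjustment over them. Such a test cannot go below 0.0571 with 3 against 4 arrays or 0.0286 with 4 against 4.

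**Figure D1:**
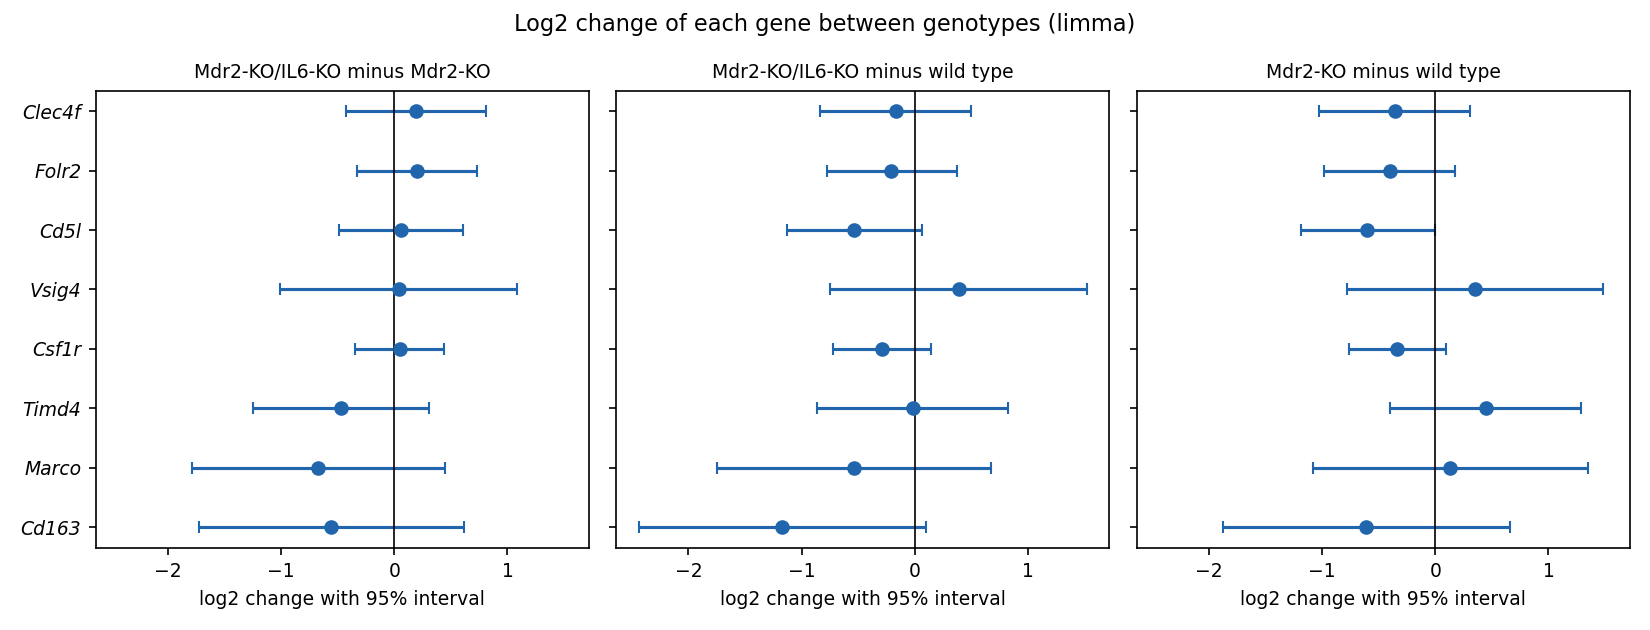
Log2 change of each member in 3 comparisons, as points with 95% intervals from the limma model; the vertical line marks no change. Every interval spans 0 except that of Cd5l for Mdr2-KO minus wild type, which ends at 0 to 2 decimals, and the intervals of Vsig4, Marco and Cd163 are the widest.

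Clec4f, a C-type lectin that binds galactose-bearing glycans and in mice is found on almost no other cell, had log2 levels of 8.39, 8.90, 8.0 and 8.78 in Mdr2-KO/IL6-KO livers, 7.99, 8.08, 8.71 and 8.55 in Mdr2-KO livers, and 9.54, 8.50 and 8.02 in wild-type livers. The single highest array was wild-type replicate 1, while wild-type replicate 3 lay at the level of the lowest knockout arrays. Its log2 change was 0.19 ± 0.29 (SE) between the knockout groups, and the 95% interval of the ratio, 0.742 to 1.75, leaves room for a change in either direction. Against wild type the changes were -0.17 ± 0.31 (limma adjusted p = 0.881) in Mdr2-KO/IL6-KO and -0.36 ± 0.31 (adjusted p = 0.829) in Mdr2-KO livers. Without wild-type replicate 1 they turned to 0.26 and 0.07. Without Mdr2-KO/IL6-KO replicate 3 the estimate for that group was 0.00.

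Vsig4, the complement receptor with which Kupffer cells catch opsonised bacteria from flowing blood, stood at 8.81, 9.26, 8.24 and 8.71 in Mdr2-KO/IL6-KO livers, 8.50, 8.51, 9.02 and 8.85 in Mdr2-KO livers, and 9.87, 8.63 and 6.60 in wild-type livers. The 8 knockout arrays kept close together, and wild-type replicates 1 and 3 marked the top and the bottom of the series. Those wild-type arrays differed 9.65-fold. Group means were 8.75 ± 0.419 and 8.72 ± 0.259 in the double and single knockout (SD, n = 4 each), against 8.37 ± 1.65 in wild type (SD, n = 3). The change between the knockout groups was 0.04 ± 0.49, with a 95% interval of the ratio from 0.496 to 2.12. That SE and interval come from the spread within all 3 groups, the wild type included. Against wild type the estimates were 0.39 ± 0.53 (adjusted p = 0.829) in Mdr2-KO/IL6-KO and 0.35 ± 0.53 (adjusted p = 0.927) in Mdr2-KO livers. They became -0.50 and -0.53 without wild-type replicate 3.

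Cd5l, a scavenger-receptor-like protein that macrophages secrete and that circulates bound to IgM, had levels of 8.47, 8.55, 8.25 and 8.64 in Mdr2-KO/IL6-KO livers, 7.90, 8.23, 8.63 and 8.93 in Mdr2-KO livers, and 9.76, 8.84 and 8.45 in wild-type livers. Wild-type replicate 1 was again the highest array, and the lowest wild-type array lay within the range of both knockout groups. This member came nearest to the threshold against wild type by unadjusted p, at -0.60 ± 0.27 in Mdr2-KO livers (limma adjusted p = 0.510; 95% interval of the ratio 0.439 to 0.998). In Mdr2-KO/IL6-KO livers the change was -0.54 ± 0.27 (adjusted p = 0.389). Both estimates stayed below 0 whichever array was left out, at -0.88 to -0.22 in Mdr2-KO and -0.82 to -0.16 in Mdr2-KO/IL6-KO livers, and neither passed. Between the knockout groups the change was 0.06 ± 0.25, which turned to -0.11 without Mdr2-KO replicate 1 and -0.01 without Mdr2-KO replicate 2.

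Folr2, the folate receptor beta of tissue macrophages, had levels of 6.73, 6.90, 6.36 and 6.83 in Mdr2-KO/IL6-KO livers, 6.09, 6.43, 6.71 and 6.80 in Mdr2-KO livers, and 7.73, 6.62 and 6.38 in wild-type livers. Only wild-type replicate 1 exceeded 7, and the other arrays of the 3 groups overlapped. The log2 change was 0.20 ± 0.25 between the knockout groups. Against wild type it was -0.21 ± 0.27 (adjusted p = 0.820) in Mdr2-KO/IL6-KO and -0.40 ± 0.27 (adjusted p = 0.723) in Mdr2-KO livers. Without wild-type replicate 1 the estimates were 0.20 and 0.00.

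Csf1r, the receptor for CSF1 and IL34 that macrophages need to survive, had levels of 8.21, 8.54, 8.32 and 8.29 in Mdr2-KO/IL6-KO livers, 8.12, 8.27, 8.41 and 8.39 in Mdr2-KO livers, and 9.15, 8.74 and 8.01 in wild-type livers. Wild-type replicates 1 and 2 lay above every knockout array and replicate 3 lay below every one. Among the members it had the most precise estimate between the knockout groups, 0.05 ± 0.18, with a 95% interval of the ratio from 0.786 to 1.36. That estimate was -0.01 without Mdr2-KO replicate 1 and -0.02 without Mdr2-KO/IL6-KO replicate 2. Against wild type the changes were -0.29 ± 0.20 (adjusted p = 0.578) in Mdr2-KO/IL6-KO and -0.34 ± 0.20 (adjusted p = 0.657) in Mdr2-KO livers. Without wild-type replicate 3 they were -0.60 (limma adjusted p = 0.0401), past the threshold, and -0.65 (adjusted p = 0.0565).

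Timd4, a phosphatidylserine receptor that tethers dying cells and marks long-resident Kupffer cells, had levels of 5.27, 5.09, 5.36 and 5.70 in Mdr2-KO/IL6-KO livers, 5.32, 6.21, 5.96 and 5.81 in Mdr2-KO livers, and 4.54, 6.72 and 4.88 in wild-type livers. In wild type, replicate 2 was the highest array of the series and replicates 1 and 3 were the lowest. Of the 4 Mdr2-KO arrays 3 lay above every Mdr2-KO/IL6-KO array. The change between the knockout groups was -0.47 ± 0.36 (limma adjusted p = 0.9995), and the exact permutation p of 0.0857 was the lowest of the 24. Against wild type the changes were -0.02 ± 0.39 (adjusted p = 0.9916) in Mdr2-KO/IL6-KO and 0.45 ± 0.39 (adjusted p = 0.831) in Mdr2-KO livers. Without wild-type replicate 2 they were 0.65 and 1.12, and the 1.12 of Mdr2-KO passed (adjusted p = 0.0401). Without Mdr2-KO/IL6-KO replicate 1 or replicate 2 the estimate for that group was 0.01 or 0.07.

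Marco, a class A scavenger receptor that binds bacteria and particles, had levels of 5.79, 5.45, 5.85 and 6.10 in Mdr2-KO/IL6-KO livers, 5.81, 7.39, 6.10 and 6.58 in Mdr2-KO livers, and 5.46, 8.24 and 5.31 in wild-type livers. Replicate 2 stood highest in both Mdr2-KO and wild type. The wild-type arrays spanned 7.64-fold. Between the knockout groups the change was -0.67 ± 0.52 (adjusted p = 0.9995; 95% interval of the ratio 0.288 to 1.37). Against wild type it was -0.54 ± 0.56 (adjusted p = 0.757) in Mdr2-KO/IL6-KO and 0.13 ± 0.56 (adjusted p = 0.980) in Mdr2-KO livers. Without wild-type replicate 2 these became 0.41 and 1.09. The Mdr2-KO estimate was -0.31 without wild-type replicate 1, -0.38 without wild-type replicate 3 and -0.18 without Mdr2-KO replicate 2.

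Cd163, the scavenger receptor for haemoglobin bound to haptoglobin, had levels of 4.55, 4.62, 4.00 and 4.06 in Mdr2-KO/IL6-KO livers, 4.23, 5.11, 4.62 and 5.51 in Mdr2-KO livers, and 4.63, 7.55 and 4.25 in wild-type livers. A single array, wild-type replicate 2, stood far above all others, of which Mdr2-KO replicate 4 came next. Its estimate for Mdr2-KO/IL6-KO minus wild type, -1.17 ± 0.59, was the largest among the members and did not pass (limma adjusted p = 0.381; 95% interval of the ratio 0.185 to 1.07). Without wild-type replicate 2 that estimate was -0.13. For Mdr2-KO the change against wild type was -0.61 ± 0.59 (adjusted p = 0.854), and 0.43 without that array. Between the knockout groups it was -0.56 ± 0.55 (adjusted p = 0.9995; 95% interval of the ratio 0.301 to 1.53).

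**Figure D2:**
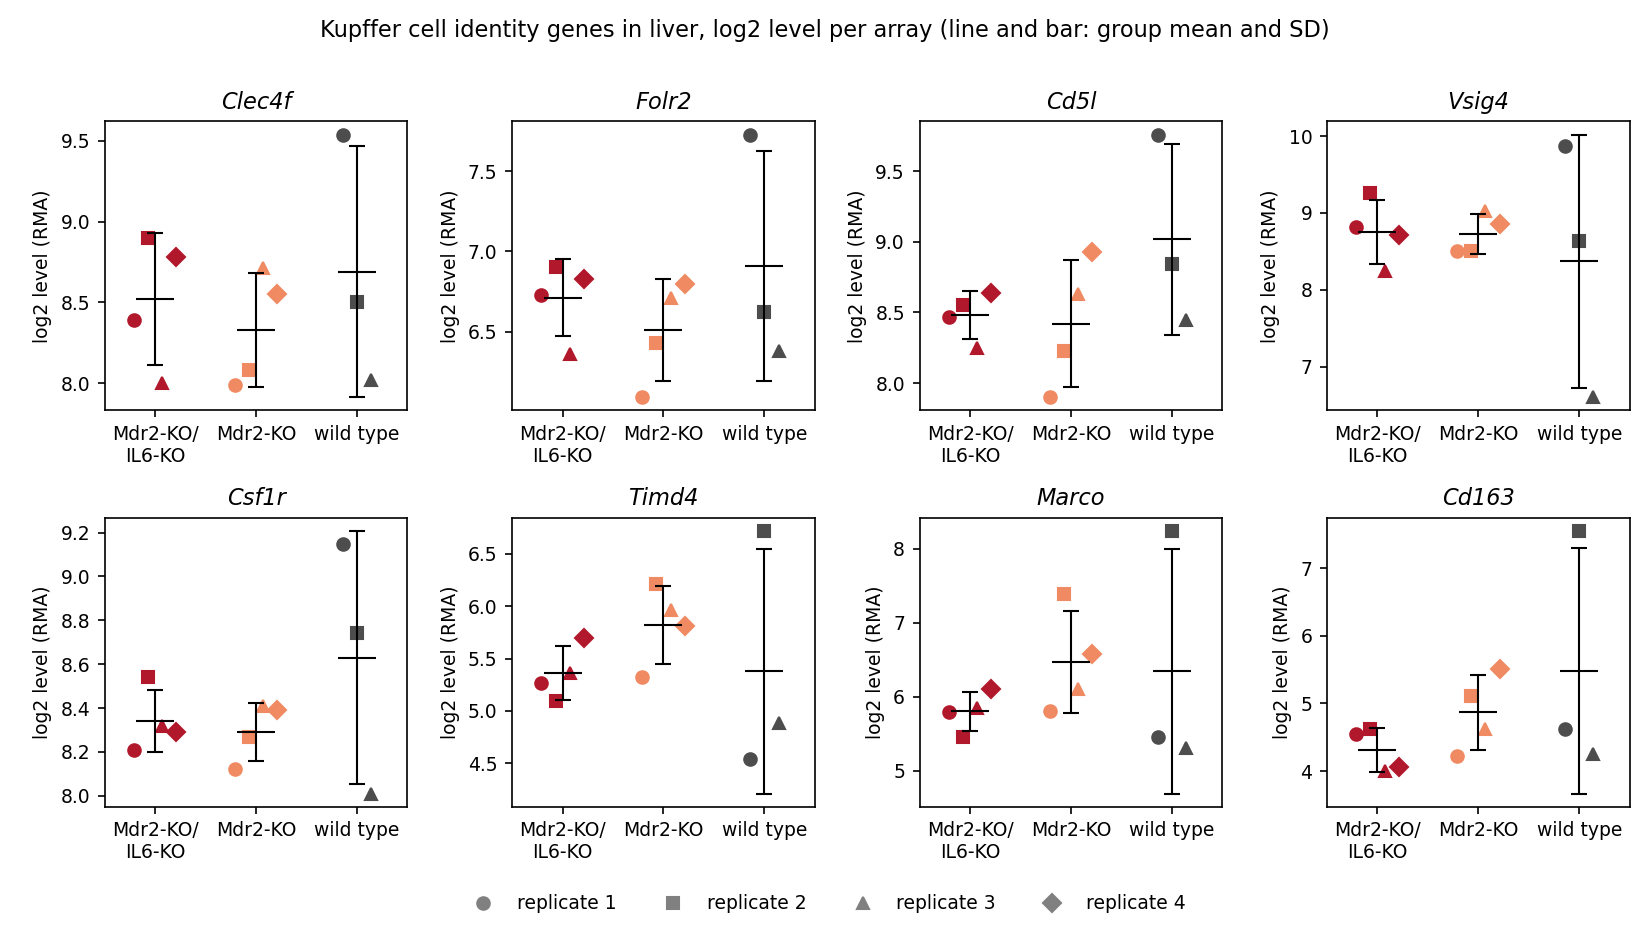
Log2 level of each member on every array, by genotype, with the group mean as a line and the SD as bars; marker shapes give the replicate number, which pairs nothing across groups. Wild-type replicate 1 is the highest array for Clec4f, Folr2, Cd5l, Vsig4 and Csf1r, and wild-type replicate 2 for Timd4, Marco and Cd163.

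For these genes the wild-type arrays lay farther apart than the arrays of either knockout group. For all 8 members the wild-type SD was the largest of the 3 groups, against 4744 of 19938 genes (23.8%). Wild-type arrays differed by over 1 log2 unit in all 8, against 173 genes (0.868%). The span was 1.14 log2 units for Csf1r, 1.32 for Cd5l, 1.35 for Folr2, 1.52 for Clec4f, 2.18 for Timd4, 2.93 for Marco, 3.27 for Vsig4 and 3.31 for Cd163. Further Kupffer cell genes had such a wild-type span in 7 of 19 cases and general macrophage and leukocyte genes in 8 of 15. Scar- and lipid-associated macrophage markers had it in 2 of 14 cases and Kupffer cell transcription factors in 1 of 13. Recruited monocyte markers had it in 1 of 9 and T and NK cell markers in 1 of 8. The remaining lists, hepatocyte markers (0 of 9) among them, had it in 0 cases, near the share of all genes. The mean deviation of the hepatocyte markers per array stayed between -0.10 and 0.08.

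Members were then set beside each other across the arrays, in sets formed after their values were seen. For Clec4f, Vsig4, Cd5l, Folr2 and Csf1r the 10 pairs had Pearson r from 0.53 to 0.96 over the 11 arrays, and from 0.61 to 0.91 within the 8 knockout arrays alone. For Timd4, Marco and Cd163 the 3 pairs had r from 0.70 to 0.92, and 0.50 to 0.89 within the knockout arrays. The 15 pairs between the sets had r from -0.36 to 0.40, and -0.30 to 0.47 within the knockout arrays. For each pair the 2 arrays farthest from the median of 1 of its genes were then left out, without regard to the other gene. In that setting r was 0.36 to 0.95 within the larger set, 0.22 to 0.86 within the smaller and -0.40 to 0.57 between them. The sets then overlapped, though these values depend on which gene of a pair chose the arrays. All 28 pairs were computed, each array supplies both values of a point, and no p is given.

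The closest pair in the larger set was Clec4f with Folr2 (r = 0.96, Spearman rho = 0.95). With the 2 arrays farthest from the median of Clec4f left out, wild-type replicate 1 and Mdr2-KO replicate 1, r was 0.95. Timd4 and Marco had r = 0.92 and rho = 0.96, and r = 0.86 without the replicate 2 arrays of wild type and Mdr2-KO. The likeness of Cd163 to these receptors rested on those arrays, since r with Timd4 was 0.70 with them and 0.22 without them, and r with Marco was 0.85 and 0.49. By rank Cd163 was not closer to one set than to the other, and the values interleaved. In the larger set rho was 0.55 with Csf1r, 0.51 with Cd5l, 0.45 with Vsig4, 0.38 with Clec4f and 0.35 with Folr2. In the smaller set it was 0.44 with Marco and 0.37 with Timd4. The r of Cd163 with Cd5l was 0.28 over all arrays and 0.57 without wild-type replicate 1 and Mdr2-KO replicate 1. Those arrays were chosen on Cd5l, and wild-type replicate 2, the highest array of Cd163, was kept. Vsig4 with Csf1r went the other way, with r = 0.73 over all arrays and 0.36 without wild-type replicates 1 and 3. Within the 8 knockout arrays r of that pair was 0.69.

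**Figure D3:**
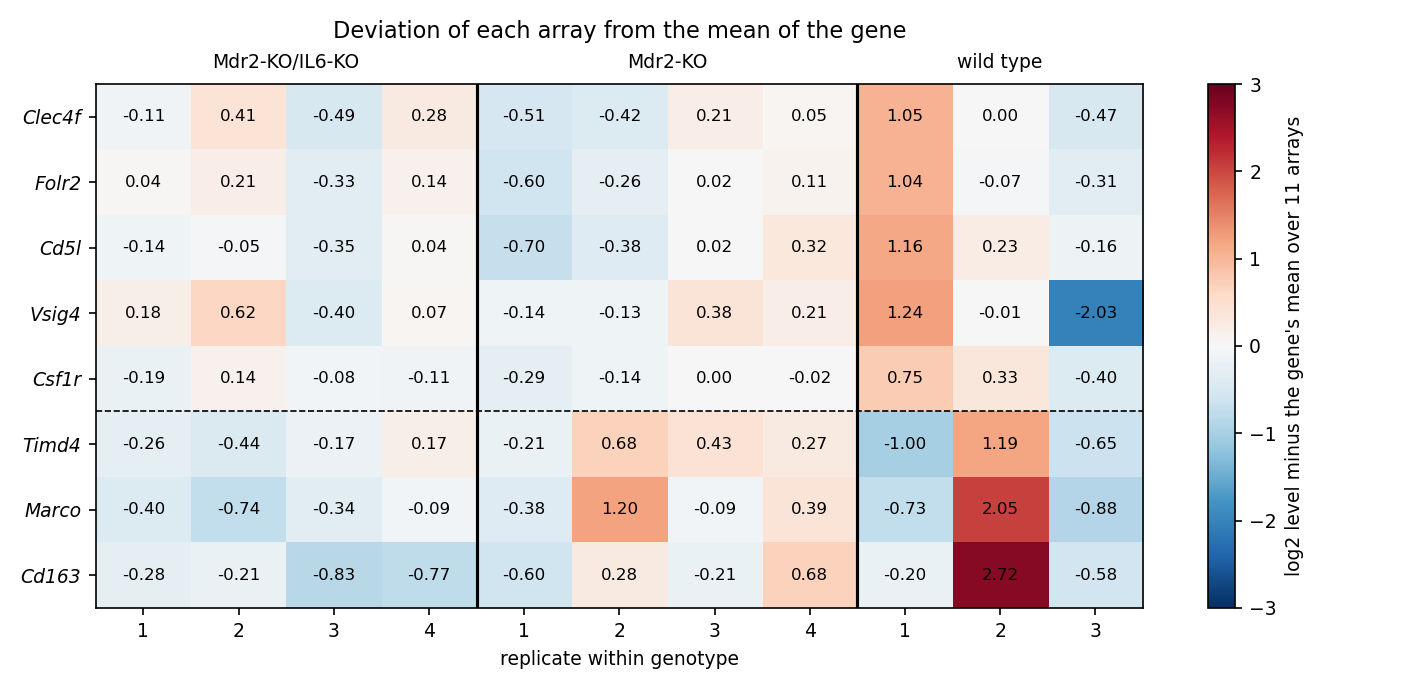
Deviation of each array from the mean of the gene over 11 arrays, in log2 units, with the members as horizontal bands and the arrays as columns; red is above and blue below the mean. Wild-type replicate 1 is 0.75 to 1.24 above the mean for the upper 5 genes, and wild-type replicate 2 is 1.19 to 2.72 above it for the lower 3.

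Among all genes tested, those most like Clec4f over the 11 arrays were Cdh5, the cadherin of endothelial junctions (r = 0.977, rho = 0.927), then Folr2 (r = 0.955), the complement subunit gene C1qb (r = 0.922, rho = 0.782), Fabp7, a fatty-acid-binding protein (r = 0.909), and Naip6, a gene of the inflammasome sensor family (r = 0.898). Naip6 has near-identical neighbours, so its probe set may read them as well. The genes most like Cd5l were Slc15a3, a lysosomal peptide and histidine transporter (r = 0.948, rho = 0.927), Cfp, which encodes properdin (r = 0.948, rho = 0.845), Stpg4 (r = 0.946), Cd48, a leukocyte surface protein (r = 0.944), and Aif1, which encodes the macrophage protein IBA1 (r = 0.941, rho = 0.764). With group means removed r was 0.901 to 0.975 for the Clec4f neighbours and 0.923 to 0.967 for those of Cd5l. Each array supplies both values of a point.

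Other genes by which Kupffer cells are known were read from lists. Of 19 further Kupffer cell genes measured, 1 fell in Mdr2-KO livers against wild type, and in Mdr2-KO/IL6-KO livers 1 fell and 2 rose. Cd300e, an activating receptor of myeloid cells, averaged 5.17 ± 0.265 in Mdr2-KO/IL6-KO and 5.27 ± 0.398 in Mdr2-KO livers (SD, n = 4 each), against 7.08 ± 1.08 in wild-type livers (SD, n = 3). It fell by 1.90 (limma adjusted p = 0.0104) and 1.80 (adjusted p = 0.0310) on the log2 scale, and wild-type replicate 2, at 8.0, was its highest array. Without wild-type replicate 1 the adjusted p was 0.0547 in Mdr2-KO/IL6-KO and 0.143 in Mdr2-KO livers. The call in Mdr2-KO livers was also lost without wild-type replicate 2 or Mdr2-KO replicate 1, replicate 3 or replicate 4. It was lost too with a trended, robust variance (adjusted p = 0.0936), array weights (0.0558) and only those groups in the fit (0.121).

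C6, a terminal complement component that hepatocytes also make, rose by 0.53 in Mdr2-KO/IL6-KO livers against wild type (adjusted p = 0.0235), and Lyve1, a hyaluronan receptor shared with sinusoidal endothelium, rose by 0.66 (adjusted p = 0.0357). Both calls were lost without wild-type replicate 1 or 3 and without Mdr2-KO/IL6-KO replicate 2 or 3, and that of Lyve1 also when Mdr2-KO/IL6-KO replicate 1 or Mdr2-KO replicate 4 was left out. The adjusted p reached 0.113 for C6 and 0.156 for Lyve1. In Mdr2-KO livers the estimates against wild type were 0.45 for C6 (limma adjusted p = 0.102) and 0.44 for Lyve1 (adjusted p = 0.33). C6 passed there with array weights, without Mdr2-KO replicate 2, and without the replicate 2 arrays of wild type and Mdr2-KO. The median log2 change of the 19 genes was -0.19 in Mdr2-KO/IL6-KO and -0.21 in Mdr2-KO livers against wild type.

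Of 13 transcription factors of Kupffer cells measured, Spic, the ETS factor of iron-handling macrophages, passed in both comparisons with wild type and the other 12 in neither. Spic lay below the median gene, and signal over background was not used. Its levels were 4.62, 4.37, 3.75 and 4.44 in Mdr2-KO/IL6-KO livers, 3.93, 3.77, 4.26 and 4.39 in Mdr2-KO livers, and 5.50, 5.53 and 4.62 in wild-type livers. Wild-type replicate 3 equalled the highest double-knockout array to 2 decimals and lay above every Mdr2-KO array. Spic fell by 0.92 ± 0.24 (adjusted p = 0.0495) and 1.13 ± 0.24 (adjusted p = 0.0371). In Mdr2-KO/IL6-KO livers the call was lost with any array left out except wild-type replicate 3 and Mdr2-KO replicate 2 (adjusted p up to 0.203). In Mdr2-KO livers it was lost without wild-type replicate 1 or 2, Mdr2-KO replicate 1, 2 or 3, or Mdr2-KO/IL6-KO replicate 2 or 4 (adjusted p up to 0.179). Quantile normalization, array weights and a fit of only the groups compared also ended the call, with adjusted p of 0.0710, 0.0610 and 0.0668 in Mdr2-KO/IL6-KO and 0.0560, 0.0746 and 0.0744 in Mdr2-KO livers. In Mdr2-KO/IL6-KO livers the mean of the probe sets (0.0501) and a trended, robust variance (0.0551) did so as well. The estimate itself stayed at -0.92 in both of these settings.

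Among 14 ligands of the CSF1 receptor and other niche signals, which include Csf1, Il34, Notch ligands and BMP ligands, 0 passed in Mdr2-KO livers against wild type. Bmp10, a ligand made by stellate cells, fell by 0.57 ± 0.13 in Mdr2-KO/IL6-KO livers (adjusted p = 0.0258), and the call was lost without any single wild-type array or without Mdr2-KO/IL6-KO replicate 1, 2 or 3 (adjusted p up to 0.114). Its estimate in Mdr2-KO livers was -0.40 (limma adjusted p = 0.231). Of 13 genes measured on a list of ligands, partners and other genes set beside the members, 1 rose and 1 fell in both comparisons. Mfge8, a secreted bridge between phosphatidylserine and phagocyte integrins, had levels of 8.50, 8.34, 8.56 and 8.06 in Mdr2-KO/IL6-KO livers, 8.18, 8.08, 8.63 and 8.41 in Mdr2-KO livers, and 6.65, 6.77 and 6.81 in wild-type livers. Every knockout array lay above every wild-type array. It rose by 1.62 ± 0.14 (adjusted p = 3.12e-05) and 1.58 ± 0.14 (adjusted p = 6.77e-05), and passed with any 1 array left out.

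Fgf21, on the same list, is a hormone of the hepatocyte and not a ligand of any member. It fell by 0.96 (adjusted p = 0.0104) in Mdr2-KO/IL6-KO livers and by 0.98 (adjusted p = 0.0191) in Mdr2-KO livers against wild type. The call in Mdr2-KO livers was lost without wild-type replicate 3 (adjusted p = 0.0698) and without Mdr2-KO replicate 1, replicate 3 or replicate 4. None of the genes in these 4 lists passed between the knockout groups.

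**Figure D4:**
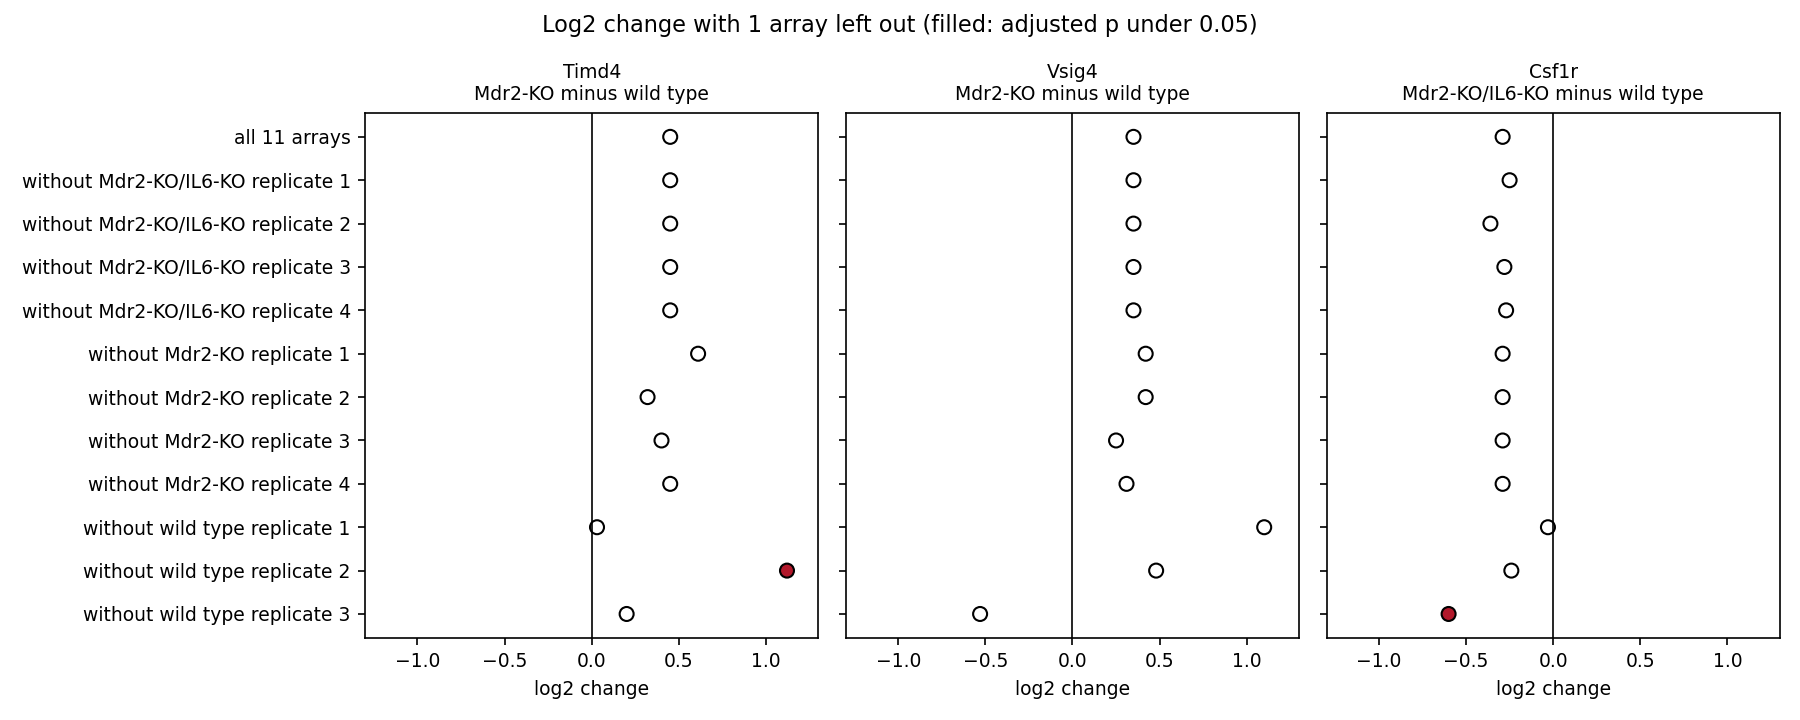
Log2 change of Timd4, Vsig4 and Csf1r in the comparison named above each panel, with all 11 arrays and with each array left out in turn; filled points passed at an adjusted p under 0.05. Timd4 reaches 1.12 without wild-type replicate 2, Vsig4 turns to -0.53 without wild-type replicate 3, and Csf1r reaches -0.60 without wild-type replicate 3.

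Markers of other macrophages and of other liver cells were read beside these values. Of 15 general macrophage and leukocyte genes 0 passed in any comparison with all 11 arrays; Lst1, a myeloid gene, had the lowest p, at -0.45 ± 0.13 for Mdr2-KO/IL6-KO minus wild type (adjusted p = 0.0666). Lst1 did pass there with dim genes left out (0.0380), quantile normalization (0.0425), array weights (0.0442), only those groups in the fit (0.0285) and without Mdr2-KO replicate 1 (0.0339). The mean deviation of this list was -0.19 to 0.03 over the Mdr2-KO/IL6-KO arrays, -0.24 to 0.24 over the Mdr2-KO arrays, and 0.60, 0.04 and -0.38 in wild-type replicates 1, 2 and 3. That order of the wild-type arrays is the order that Clec4f, Vsig4, Cd5l, Folr2 and Csf1r show. Of 9 recruited monocyte markers 0 passed, with F13a1, a coagulation factor subunit of monocytes, nearest at -0.41 ± 0.13 for Mdr2-KO/IL6-KO minus wild type (adjusted p = 0.103). Of 7 markers of splenic and other tissue macrophages 0 passed, with Tmem119, a microglial marker, nearest at 0.44 ± 0.14 in that comparison (adjusted p = 0.106). Tmem119 passed there with array weights (adjusted p = 0.0418) and, at 0.59, without Mdr2-KO/IL6-KO replicate 4 (adjusted p = 0.00429).

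Scar- and lipid-associated macrophage markers did pass against wild type. Of 14 measured, 4 rose and 1 fell in Mdr2-KO/IL6-KO livers, and 3 rose and 1 fell in Mdr2-KO livers. Mmp12, the macrophage elastase, had levels of 8.03, 7.82, 7.69 and 7.24 in Mdr2-KO/IL6-KO livers, 7.40, 6.60, 7.39 and 7.50 in Mdr2-KO livers, and 6.26, 4.92 and 5.64 in wild-type livers. It rose by 2.08 ± 0.29 (adjusted p = 0.00117) and 1.61 ± 0.29 (adjusted p = 0.0128), with no overlap between knockout and wild-type arrays. Gpnmb, a lysosome-linked glycoprotein, rose by 1.57 and 1.18, and Cd9, a tetraspanin that bile duct cells also carry, by 1.09 and 0.83. The calls in Mdr2-KO livers were lost without wild-type replicate 2 for Mmp12 (adjusted p = 0.0554), Gpnmb (adjusted p = 0.139) and Cd9 (adjusted p = 0.126). Gpnmb and Cd9 also lost them without either of the other wild-type arrays, and without Mdr2-KO replicate 1 or 3 (Gpnmb) or 3 or 4 (Cd9). Fabp5, a fatty-acid-binding protein that hepatocytes also express, fell by 2.25 ± 0.28 (adjusted p = 0.000549) and 1.83 ± 0.28 (adjusted p = 0.00539).

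Bile duct markers passed upward in 4 of 7 cases in both comparisons with wild type, and stellate cell and fibroblast markers in 5 of 8 in Mdr2-KO/IL6-KO and 4 of 8 in Mdr2-KO livers. Of those 4, Pdgfrb, a receptor of stellate cells, rose by 0.72 (adjusted p = 0.0380), a call that was lost with any array left out except Mdr2-KO replicate 2 and Mdr2-KO/IL6-KO replicates 1 and 3 (adjusted p up to 0.166) and with only those groups in the fit (0.0630). Epcam, a surface marker of bile duct cells, rose by 1.36 and 1.29, and Col1a1, the main fibrillar collagen chain, by 1.24 and 1.02. Of 10 sinusoidal endothelial markers 2 rose in Mdr2-KO/IL6-KO livers against wild type, Stab1 by 0.36 (adjusted p = 0.0419) and Lyve1 as above, and 0 passed in Mdr2-KO livers. The Mdr2-KO estimate for Stab1 was 0.22 (limma adjusted p = 0.444), and Stab1 did not pass between the knockout groups. Of 8 T and NK cell markers Cd8a (adjusted p = 0.0464) and Gzma (adjusted p = 0.0412) fell in Mdr2-KO/IL6-KO livers, by 0.58 and 0.60, and 0 passed in Mdr2-KO livers. The Mdr2-KO estimates were -0.55 for Cd8a (limma adjusted p = 0.115) and -0.49 for Gzma (adjusted p = 0.191). Cd8a passed there with array weights (adjusted p = 0.0418). Between the knockout groups Cd8a and Gzma changed by -0.03 and -0.11 and did not pass. The Stab1 call was lost with any array left out except Mdr2-KO replicates 2 and 3 and Mdr2-KO/IL6-KO replicate 4 (adjusted p up to 0.156). That of Cd8a was lost with any except wild-type replicate 2, Mdr2-KO replicate 2 and Mdr2-KO/IL6-KO replicate 3 (adjusted p up to 0.204). That of Gzma was lost with any except wild-type replicate 3, Mdr2-KO replicates 2 and 3 and Mdr2-KO/IL6-KO replicate 2 (adjusted p up to 0.165). Of 6 B and plasma cell and 8 neutrophil markers 0 passed, with Jchain, of plasma cells, nearest in its list at -1.01 ± 0.33 (adjusted p = 0.130) and Csf3r, of neutrophils, at -0.27 ± 0.09 (adjusted p = 0.124), both for Mdr2-KO/IL6-KO minus wild type. Jchain passed there with array weights (adjusted p = 0.0305) and without Mdr2-KO replicate 3 (adjusted p = 0.0385). Of 9 hepatocyte markers Fgb, a fibrinogen chain, passed, falling by 0.56 in Mdr2-KO/IL6-KO livers against wild type (adjusted p = 0.00137). In Mdr2-KO livers its estimate was -0.30 (limma adjusted p = 0.104), and it passed there with dim genes left out and with a trended, robust variance. The part of these other cell types in the levels of the Kupffer cell genes was not tested.

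**Figure D5:**
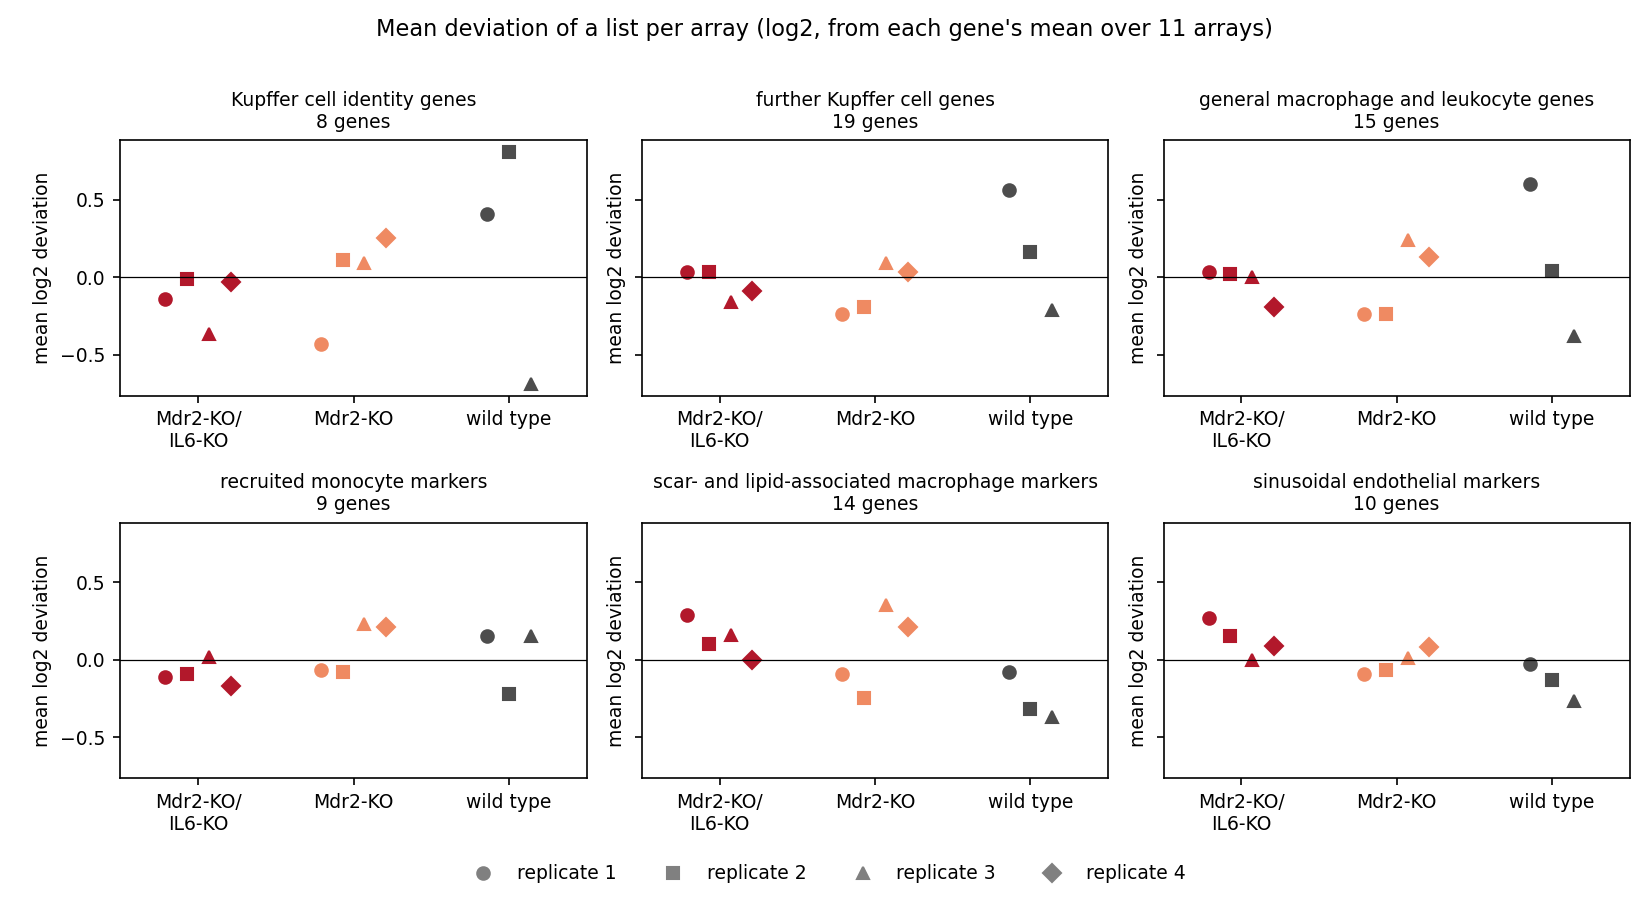
Mean deviation of 6 gene lists on each array, in log2 units from the mean of each gene over 11 arrays, by genotype; marker shapes give the replicate number. The members span -0.43 to 0.25 over the knockout arrays and -0.69 to 0.81 in wild type. Scar- and lipid-associated macrophage markers lie at -0.25 to 0.35 on the Mdr2-KO arrays and at -0.37 to -0.08 on the wild-type arrays, which overlap. On the Mdr2-KO/IL6-KO arrays those markers lie at 0.0 to 0.29, above every wild-type array.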

How the data were processed

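Total RNA from snap-frozen liver was converted to biotinylated cRNA and hybridised to Affymetrix arrays, per the labels' protocols. The authors deposited log2 levels of 35557 probe sets on 11 arrays, and the submitters' processing notes name Partek and RMA; their versions and settings are not given in the sources used here. These log2 values were used without further normalization. Names came from the platform annotation, with symbols updated against RefSeq (19856 of 19938 genes matched). A gene was read on a probe set with 1 symbol, taking the one with the highest mean where there were several (999 genes). Each member had 1 probe set. Signal over background was not used here, and the number of arrays limits the precision.

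Genotypes were compared with limma 3.58.1 in R 4.3.3, as 1 model of 3 group means over 11 arrays with eBayes. Tests were two-sided, p-values were adjusted over 19938 genes by Benjamini-Hochberg, and an adjusted p under 0.05 counted as passing. Changes carry the SE of that model, which pools the spread within all 3 groups. The wild-type SD, the largest for all 8 members, raises that pooled spread. It therefore also enters the SEs, intervals and p-values between the knockout groups. Single members were also tested by exact permutation. The fit was tested on simulated data. Alternatives were other probe set, filter, normalization, variance, sample and threshold choices, each array left out in turn, and, chosen after seeing the data, the replicate 2 arrays of wild type and Mdr2-KO left out together. The labels give no batch.

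The members and 15 other gene lists were chosen with earlier results of these data known. Of 176 entries in those lists, 16 lacked a probe set annotated to their symbol alone and were not analysed here. From each list the text names up to 4 passing genes with the lowest p or, where none passed, the gene with the lowest p; likeness is given as the 5 genes of highest Pearson r to Clec4f and to Cd5l, the member with the lowest p.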

Additional observations from a re-analysis of the deposited data

Results flagged for a closer look

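None of the 8 members had an array that stood apart from the others of its group by Dixon's criterion, which was applied to their 16 groups of 4 arrays; the wild-type groups of 3 are too small for it. Among all 72 groups tested, which include the genes named beside the members, 2 had such an array, and chance gives about 1 in 20. Fgf21 reached 6.03 on 1 Mdr2-KO array, replicate 2, with the nearest of the others at 5.44. Mmp12 was at 6.60 on the same array, with the nearest of the others at 7.39. That array also had the highest Timd4 and Marco levels of its group.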

How the results depend on the processing

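No paired analysis was possible because the labels carry no shared replicate numbers. Of the members, 0 of 8 passed in each comparison under every other probe set, filter, normalization and variance setting and at an adjusted p under 0.1. Each member had 1 probe set, so the probe set setting could not change its levels or estimates. The filter on dim genes left out Timd4 and Cd163, which lay below the median gene. Among the genes named beside the members it also left out Spic, Bmp10, Gzma, F13a1, Csf3r and Tmem119. With 1 array left out 0 to 1 passed for Mdr2-KO minus wild type (Timd4) and 0 to 1 for Mdr2-KO/IL6-KO minus wild type (Csf1r). For Mdr2-KO minus wild type 1 passed with both replicate 2 arrays left out (Timd4, 0.99, adjusted p = 0.0497) and 1 at an unadjusted p under 0.05 (Cd5l). Estimates kept their sign with each array left out for 5 of 8 members between the knockout groups and 3 of 8 in each comparison with wild type. For Mdr2-KO/IL6-KO minus Mdr2-KO they ranged from -0.13 to 0.21 (Vsig4), -0.11 to 0.23 (Cd5l) and -0.02 to 0.09 (Csf1r). For Mdr2-KO/IL6-KO minus wild type they ranged from -0.50 to 0.26 (Clec4f), -0.50 to 1.14 (Vsig4), -0.44 to 0.65 (Timd4), -1.05 to 0.41 (Marco) and -0.47 to 0.20 (Folr2). For Mdr2-KO minus wild type they ranged from -0.69 to 0.07 (Clec4f), -0.53 to 1.10 (Vsig4), -0.38 to 1.09 (Marco), -0.67 to 0.00 (Folr2) and -1.22 to 0.43 (Cd163). Array weights turned Cd5l to -0.02 between the knockout groups and Timd4 to 0.11 for Mdr2-KO/IL6-KO minus wild type. Without both replicate 2 arrays the values were -0.03 (Vsig4) and -0.01 (Cd5l) between the knockout groups, 0.65 (Timd4) and 0.41 (Marco) for Mdr2-KO/IL6-KO minus wild type, and 0.35 (Cd163) for Mdr2-KO minus wild type. Among the genes named beside the members, calls for Mdr2-KO/IL6-KO minus wild type were also lost with only those groups in the fit for Lyve1 (adjusted p = 0.0656), Bmp10 (0.0509), Stab1 (0.0639), Gzma (0.0754) and Cd8a (0.0795), with quantile normalization for Bmp10 (0.0503) and Stab1 (0.0698), and with median centring for Stab1 (0.0524). Calls for Mdr2-KO minus wild type were lost with only those groups in the fit for Fgf21 (0.0881), Mmp12 (0.0535) and Cd9 (0.101). Leaving out both replicate 2 arrays ended those calls for Cd300e (limma adjusted p = 0.0841), Spic (0.229), Gpnmb (0.109) and Cd9 (0.0964). For Mdr2-KO/IL6-KO minus wild type that setting ended the calls of Spic (0.166), Bmp10 (0.105), Stab1 (0.14) and Gzma (0.0638). Over all genes, 252 calls for Mdr2-KO minus wild type became 410 with array weights, 138 with only those groups in the fit and 148 to 323 with 1 array left out; 836 calls for Mdr2-KO/IL6-KO minus wild type became 1341 and 464 to 989; and 1 call between the knockout groups became 1 to 6. Beyond the fewer arrays or genes that such settings use, the cause was not tested.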
